A study of Drosophila melanogaster
Mus musculus with 4 samples.

Results

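Accessible chromatin was examined across the stretch of mouse chromosome 18 that carries Hdac3, from 28 to 48 Mb of the mm10 genome. Its members are the sites of the authors' table on chromosome 18 that start in this interval: 509 of 69709 sites in all, each measured in 4 libraries. They were chosen by position alone. ATAC-seq uses a transposase that cuts open DNA and inserts sequencing adapters, so that reads pile up where chromatin is accessible. The libraries came from B220+CD43+ cells, an early B cell fraction, sorted from bone marrow of C57BL/6 mice at 8 weeks of age. The compared groups were 2 samples with Hdac3 deleted and 2 wild-type samples, which the design text gives as Hdac3+/+. Drosophila S2 cells, a fly cell line, were added to the sorted cells before transposition. The labels name neither what drove the deletion nor the number of mice behind each library. Because the controls were Hdac3+/+, an effect of losing HDAC3 and an effect of any chromosome 18 sequence inherited along with the altered allele cannot be told apart in this interval.

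HDAC3 is a histone deacetylase that works as the enzyme of the NCoR and SMRT corepressor complexes, which nuclear receptors and other factors bring to chromatin. Removal of acetyl groups from histones is in general tied to less accessible chromatin. Next to Hdac3 lie the clustered protocadherins, cell adhesion genes set out in alpha, beta and gamma arrays and known mainly for giving single neurons their surface identity. Both the gene and the cluster were taken as intervals rounded to 10 kb, and the cluster lies below the gene along the chromosome. No mouse annotation was used here, so other genes of the stretch are not named, and the sorted cells were not checked against marker genes.

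Reads counted in sites came to 21177343 and 16132402 in Hdac3-deleted replicates 1 and 2, and to 32988999 and 19017456 in wild-type replicates 1 and 2. The stretch held 165921 and 130464 of these reads in the Hdac3-deleted libraries and 258516 and 148120 in the wild-type libraries. Levels below are normalized reads per site, as the authors scaled them. A change is a log2 fold change, Hdac3 deleted over wild type, on the log2(value + 1) scale, and a site is called when limma gives a Benjamini-Hochberg adjusted p under 0.05 over all sites. Since nothing says that replicates came from separate mice, p-values measure only the spread between these libraries. Wild-type replicate 2 stood apart on the sex chromosomes: 27 sites of chromosome X were more than 8-fold below each other library, and 10 peaks lay on chromosome Y below 50 Mb against 0 in each other library. In the stretch around Hdac3, 0 sites were that low in this library.

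With Hdac3 deleted, 81 of the 509 sites rose and 48 fell, so 25.3% were called against 20.6% of all sites. By direction, 15.9% were higher and 9.43% lower, against 11.7% and 8.9% of all sites. The median log2 fold change was -0.00 in the stretch and -0.01 over all sites. Its mean log2 level per site was 7.35 ± 0.01 in Hdac3-deleted cells and 7.22 ± 0.02 in wild type, against 7.28 ± 0.03 and 7.24 ± 0.02 over all sites (SD, n = 2 each). Both Hdac3-deleted libraries lay above both wild-type libraries at 176 sites and below them at 150, against 30.1% and 30.5% of all sites. The share of large single changes differed most from the background. An absolute log2 fold change above 1 was found at 91 sites (17.9%), against 14.6% on the rest of chromosome 18 and 13.3% of all sites. An absolute change above 2 was found at 24 sites (4.72%), against 9 of 1641 sites (0.548%) on the rest of chromosome 18 and 0.96% of all sites. All 24 were called, as were 660 of the 669 sites of that size over all sites. These shares are descriptions, since neighbouring sites are not replicates. Differences of this size between libraries of the same genotype were rarer: 0.196% of the 509 sites between the Hdac3-deleted replicates and 0 between the wild-type replicates exceeded 2. Without wild-type replicate 1 the called sites numbered 65 (12.8%, against 9.46% of all sites), and without Hdac3-deleted replicate 1 they numbered 75 (14.7%, against 12.2% of all sites).

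**Figure D1:**
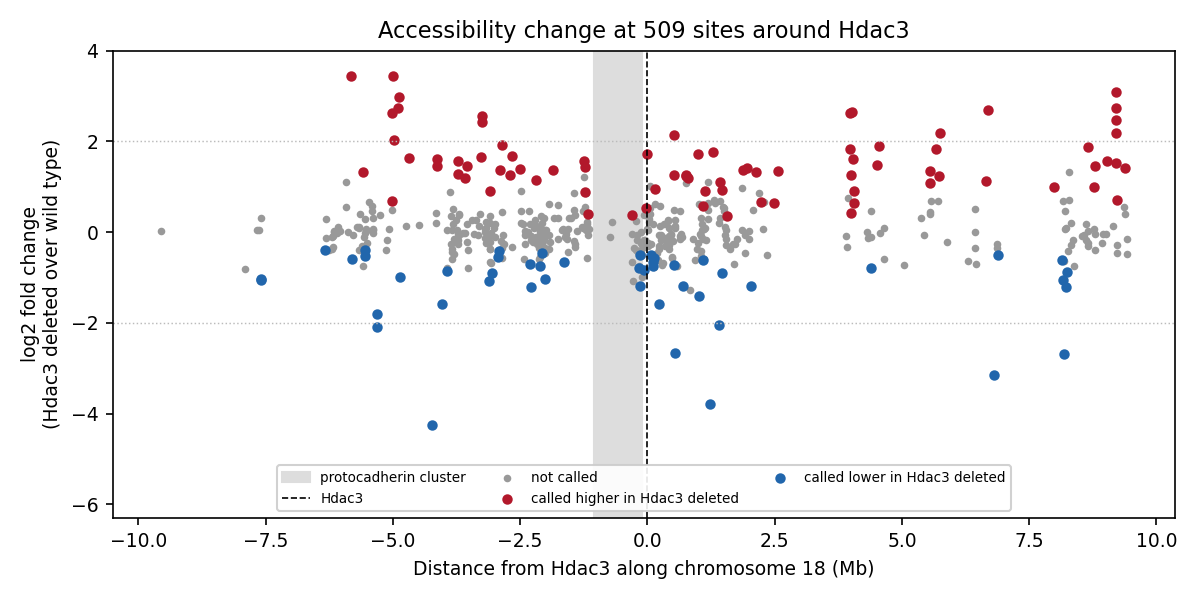
Log2 fold change (Hdac3 deleted over wild type) at every site of the stretch against distance from Hdac3 in Mb. Red and blue points passed the test, grey points did not, and dotted lines mark changes of 2 in size. Points beyond the dotted lines are absent from the 3.77 Mb that hold Hdac3 and the protocadherin cluster (grey band).

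In the interval taken for the Hdac3 gene, which is rounded to 10 kb, accessibility did not pass the test at either of the 2 sites overlapping it. The site at chr18:37954560-37955894 held 774 and 906 normalized reads in Hdac3-deleted replicates 1 and 2, against 986 and 995 in wild-type replicates 1 and 2. Both Hdac3-deleted libraries lay below both wild-type libraries, by a log2 fold change of -0.24 ± 0.12 (SE; limma, Benjamini-Hochberg adjusted p = 0.162). The neighbouring site at chr18:37955997-37956527 held 519 and 417 normalized reads in Hdac3-deleted cells and 565 and 579 in wild type. Again the groups did not overlap, with a log2 fold change of -0.30 ± 0.15 (SE; limma, Benjamini-Hochberg adjusted p = 0.182). Unadjusted p-values were 0.0551 and 0.0653, so 0 of the 2 sites passed 0.05 even unadjusted, and edgeR and DESeq2 also called 0. As 30.5% of all sites had both Hdac3-deleted libraries below both wild-type libraries, the separation is not rare. Summed over both sites, the level was 1308 ± 21.5 normalized reads in Hdac3-deleted cells and 1562 ± 16.1 in wild type (SD, n = 2 each). These were well covered sites: by normalized reads they stood at percentiles 91.8 and 84.2 of all sites, and by normalized reads per base at percentiles 79.9 and 89.8. Each of the 4 libraries had a peak at both. At the first, the summits of the main peak lay between 37955008 and 37955023 in the 4 libraries, within 15 bp of one another. The labels do not say which part of the gene was removed, so these sites do not check the deletion.

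The nearest site below that interval was called higher. At chr18:37938999-37939206, 10.9 kb from the midpoint taken for the gene, the Hdac3-deleted libraries held 167 and 158 normalized reads and the wild-type libraries 35.2 and 66.9. Both Hdac3-deleted libraries were above both wild-type libraries, and the means, 162 ± 6.19 and 51.1 ± 22.4 (SD, n = 2 each), differed 3.18-fold. The log2 fold change was 1.72 ± 0.32 (SE; limma, Benjamini-Hochberg adjusted p = 0.00179). Before scaling these values stood for 167 and 119 reads in Hdac3-deleted cells and 53 and 59 reads in wild type. The peak lists showed the same split: a peak with summit at 37939110 and 37939122 was called in Hdac3-deleted replicates 1 and 2, with authors' fold enrichments of 3.73 and 3.83, and none was called there in wild type. The interval given for Hdac3 is rounded to 10 kb, so whether this site falls inside the gene or between it and its neighbour was not determined. On the other side, the site at chr18:37969325-37970101 held 564 and 804 normalized reads in Hdac3-deleted cells and 668 and 628 in wild type. There the groups overlapped (log2 fold change 0.06 ± 0.15, SE; limma, Benjamini-Hochberg adjusted p = 0.844), and without Hdac3-deleted replicate 2 the log2 fold change was -0.20.

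**Figure D2:**
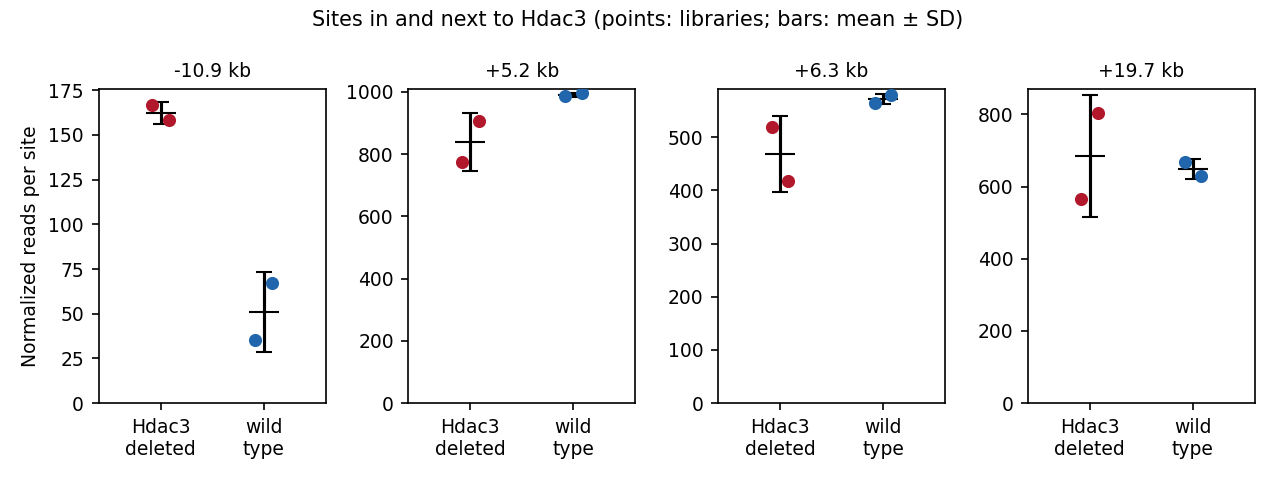
Normalized reads at the 2 sites overlapping the Hdac3 interval (+5.2 and +6.3 kb from its midpoint) and the nearest site on each side (-10.9 and +19.7 kb). Points are libraries and bars show the mean ± SD of 2; only the site at -10.9 kb passed the test, with 167 and 158 normalized reads in Hdac3-deleted libraries above 35.2 and 66.9 in wild type.

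Within 100 kb of Hdac3 lay 20 sites, of which 2 were higher and 2 lower. Besides the site just described, chr18:37925864-37926484 was higher, with 547 and 541 normalized reads in Hdac3-deleted cells and 377 and 379 in wild type. The lower sites were chr18:37877672-37878245, with 187 and 185 against 344 and 324 normalized reads, and chr18:38013803-38014684, with 260 and 252 against 371 and 357, Hdac3-deleted libraries first in each. No group overlapped at these 3 sites. The most accessible site within 100 kb, chr18:37934636-37935786, held 1498 and 1695 normalized reads in Hdac3-deleted cells and 1497 and 1536 in wild type, and was not called. The 4 calls among 20 sites are a share close to the 20.6% of all sites.

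The protocadherin cluster held 22 sites, most of them weak, and 3 of them fell while 1 rose. All but 2 lay between 37643676 and 37843172, the end next to Hdac3. The far part held the sites at chr18:37218249-37218495 and chr18:37264860-37265389 alone. The median site of the cluster had 77.9 normalized reads in Hdac3-deleted cells and 90.6 in wild type, against 129 and 122 for all sites. Log2 fold changes ran from -1.18 to 0.38, with a median of -0.37. Of the 22, 19 were negative, against 35586 of all 69709 sites, and neighbouring sites are not replicates. In 11 of the 22 sites both Hdac3-deleted libraries lay below both wild-type libraries, against 30.5% of all sites, and in 1 they lay above, against 30.1%. The test called 3 lower and 1 higher, which is 18.2% of the cluster's sites and no more than the 20.6% of all sites. The mean log2 level per site was 6.53 and 6.42 in Hdac3-deleted replicates 1 and 2 and 6.88 and 6.80 in wild-type replicates 1 and 2.

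The largest fall of the cluster was at chr18:37814372-37815578, a site 1207 bp wide. It held 227 and 182 normalized reads in Hdac3-deleted cells and 461 and 463 in wild type. The 2 wild-type libraries were nearly equal, and the Hdac3-deleted libraries both lay well below them, with a log2 fold change of -1.18 ± 0.18 (SE; limma, Benjamini-Hochberg adjusted p = 0.00054). At chr18:37787214-37787763 the levels were 194 and 147 normalized reads in Hdac3-deleted cells and 289 and 299 in wild type (log2 fold change -0.80). At chr18:37805979-37807402 they were 646 and 632 in Hdac3-deleted cells and 944 and 884 in wild type (log2 fold change -0.51). These 3 lower sites lay within 30 kb of each other. The most accessible site of the cluster, chr18:37643676-37644622, moved the other way, with 1481 and 1340.4 normalized reads in Hdac3-deleted cells and 1079 and 1092 in wild type (log2 fold change 0.38 ± 0.10, SE; limma, Benjamini-Hochberg adjusted p = 0.014). Every library had a peak at these 4 sites. Per library, the cluster had 14 and 20 peaks in Hdac3-deleted replicates 1 and 2 and 27 and 22 in wild-type replicates 1 and 2. Over the genome the same libraries had 62140 and 66507 peaks and 77919 and 65823 peaks, so these counts also carry differences between whole libraries. At 5 of the 22 sites, none above percentile 33.0 of all sites by level, both wild-type libraries and neither Hdac3-deleted library had a peak (22.7%, against 8.84% of all sites), and none of those 5 was called. Without wild-type replicate 1 the log2 fold changes at 37814372, 37787214, 37805979 and 37643676 were -1.18, -0.82, -0.47 and 0.37. Those at 37805979 and 37643676 missed the threshold in that fit. The rise at 37643676 also missed it without Hdac3-deleted replicate 1 (log2 fold change 0.30), and the fall at 37787214 without Hdac3-deleted replicate 2 (-0.60).

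**Figure D3:**
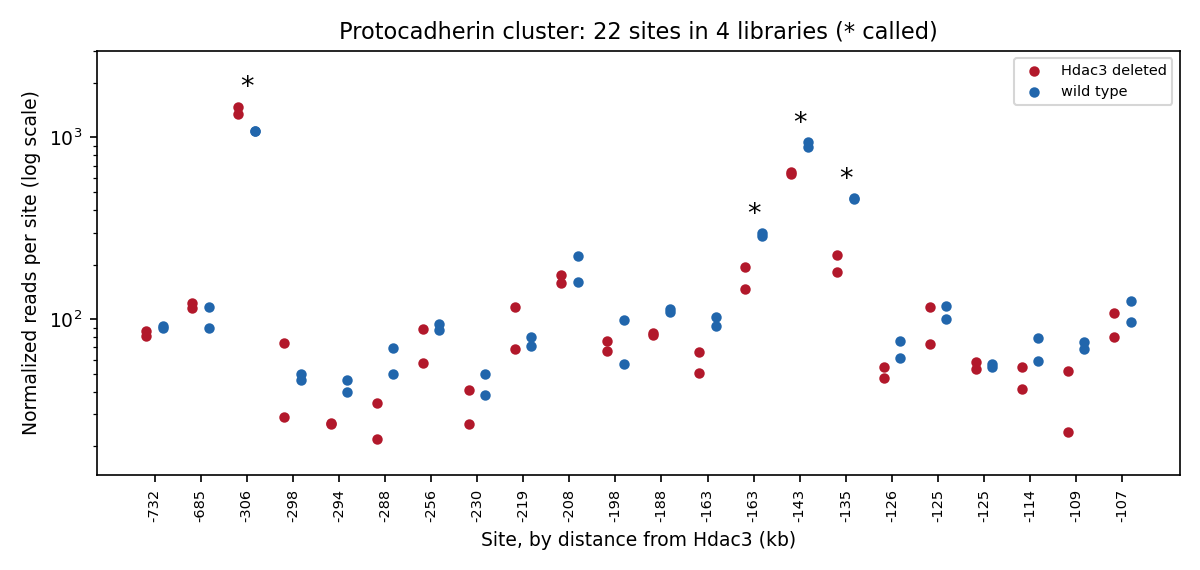
Normalized reads (log scale) at the 22 sites of the protocadherin cluster, ordered by distance from Hdac3 in kb, with each of the 4 libraries as a point. Stars mark the 4 called sites: the one at -306 kb is higher in Hdac3-deleted libraries, and those at -163, -143 and -135 kb are lower.

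Change was then set against distance from Hdac3, taking both sides together. Among the 264 sites closer than 2.5 Mb, 4 (1.52%) had an absolute log2 fold change above 2. Between 2.5 and 5 Mb the count was 9 of 113 sites (7.96%), between 5 and 7.5 Mb 6 of 76 (7.89%), and between 7.5 and 10 Mb 5 of 56 (8.93%). Strong changes were thus more frequent away from the gene than beside it, within the limits of the stretch. The share of called sites in these classes was 19.3%, 35.4%, 25.0% and 33.9%, against 20.6% of all sites. Farther out on chromosome 18 the strong changes thinned: 3 of 355 sites (0.845%) at 10 to 20 Mb, 2 of 531 (0.377%) at 20 to 30 Mb and 4 of 755 (0.53%) beyond that. The share of changes above 1 varied less, at 12.1%, 26.5%, 18.4% and 26.8% in the 4 inner classes and between 12.99% and 16.1% in the 3 outer ones.

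**Figure D4:**
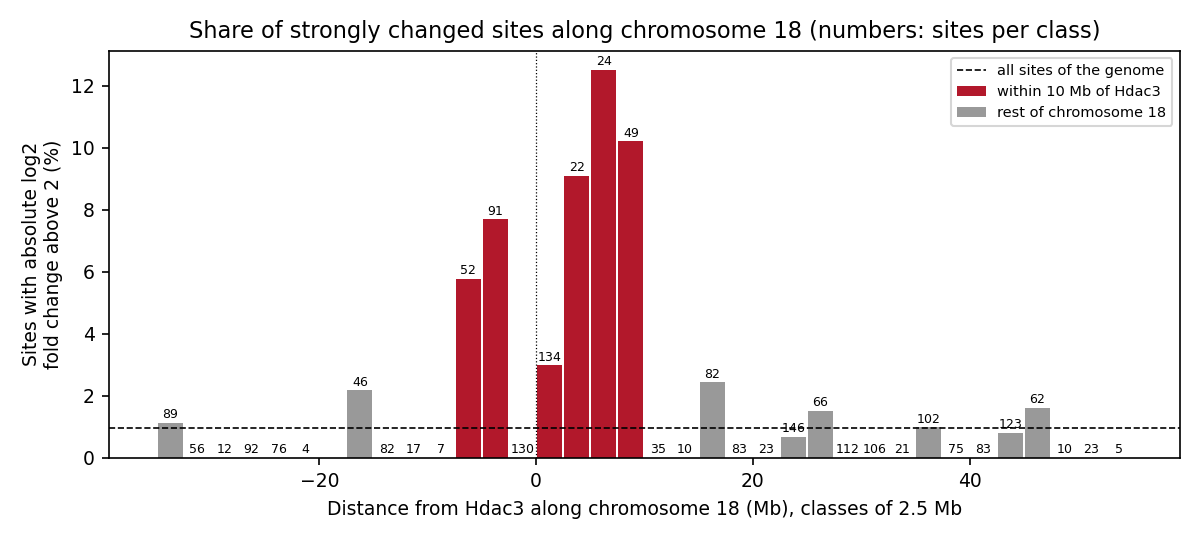
Percent of sites past a log2 fold change of 2 in size, in classes of 2.5 Mb along the whole of chromosome 18, by distance from Hdac3 in Mb. Numbers are sites per class, some under 20, and the dashed line is the share of all sites of the genome, 0.96%. Between 2.5 and 7.5 Mb on either side the classes reach 5.77% to 12.5%, while the 130 sites of the class just below Hdac3 and the 7 of the lowest class of the stretch include none.

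The 24 strong sites lay between 32127545 and 47165871, and Hdac3 sat in a gap of 3.77 Mb without such a site. This gap ran from chr18:34706192-34706583, at -3.24 Mb from the gene, to chr18:38478317-38478664, 0.53 Mb above it, and held 214 other sites. Of these, 17 were called higher (7.94%, against 11.7% of all sites) and 20 lower (9.35%, against 8.9%). Past the last strong site none followed for 5.98 Mb and 60 sites. Below the first, none occurred for 10.5 Mb and 131 sites. Among 127 tiles of 20 Mb, those of a fixed grid that held at least 200 sites, the median share of strong sites was 0.762%. The grid was not set around Hdac3, and sites of the stretch itself fall in its tiles. A single tile, at 5.81%, exceeded the 4.72% of the stretch around Hdac3. The direction of the strong sites leaned up: 17 higher and 7 lower (3.34% and 1.38% of 509), against 0.41% and 0.549% of all sites. On the rest of chromosome 18, 1 was higher and 8 were lower.

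Most strong changes were at sites with few reads in one genotype. Over the 17 higher sites the median level was 95.1 normalized reads in Hdac3-deleted cells and 19.2 in wild type. Over the 7 lower sites it was 24.0 in Hdac3-deleted cells and 152 in wild type. The groups did not overlap at any of the 24, which the choice by size makes likely. Both Hdac3-deleted libraries and neither wild-type library had a peak at 12 of the 17 higher sites, and the opposite held at 6 of the 7 lower sites. These shares, 70.6% and 85.7%, were no larger than the 80.8% and 89.3% found over all sites past 2 in the same direction. In the whole stretch, 43 sites (8.45%) had peaks in both Hdac3-deleted libraries alone, against 4.35% of all sites, and 34 (6.68%) in both wild-type libraries alone, against 8.84% of all sites. Peaks in all 4 libraries were found at 63.7% of its sites and at 65.4% of all sites. The lists of Hdac3-deleted replicates 1 and 2 had 461 and 520 peaks in the stretch, covering 185 and 201 kb, and those of wild-type replicates 1 and 2 had 556 and 466 peaks, covering 237 and 188 kb. As shares of all peaks of each library, these were 0.742% and 0.782% with Hdac3 deleted and 0.714% and 0.708% in wild type.

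Some of these sites sat close together and moved in opposite directions. At chr18:38478317-38478664 the Hdac3-deleted libraries held 93.9 and 71.7 normalized reads and the wild-type libraries 12.0 and 26.1. Only some 20 kb on, chr18:38500853-38501122 held 36.0 and 14.6 normalized reads in Hdac3-deleted cells and 161 and 142 in wild type. Accessibility was thus gained at one and lost at the other. The largest fall of the stretch was at chr18:33720207-33720599, with 7.99 and 10.6 normalized reads in Hdac3-deleted cells and 180 and 212 in wild type (log2 fold change -4.26 ± 0.39, SE; limma, Benjamini-Hochberg adjusted p = 1.05e-05). The largest rise was at chr18:32961136-32961478, with 110 and 65.1 in Hdac3-deleted cells and 3.98 and 11.3 in wild type (log2 fold change 3.45 ± 0.56, SE). Its wild-type values stood for 6 and 10 reads, so that the size of this change is uncertain. These 4 sites were chosen after their values were seen.

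Among well covered sites, those at or above the median level of all sites (125 normalized reads), the largest rise was at the far end of the stretch. The site at chr18:47165463-47165871, 9.22 Mb above Hdac3, held 302 and 300.2 normalized reads in Hdac3-deleted cells and 45.2 and 26.1 in wild type (log2 fold change 3.09 ± 0.30, SE; limma, Benjamini-Hochberg adjusted p = 1.69e-05). On the other side of the gene, chr18:34706192-34706583 held 221 and 217 in Hdac3-deleted cells and 25.2 and 51.1 in wild type (log2 fold change 2.57). In both, the Hdac3-deleted libraries were almost equal and several times above either wild-type library. Levels at chr18:32969731-32970637 were 934 and 1136 normalized reads in Hdac3-deleted cells and 321 and 199 in wild type (log2 fold change 2.02). At chr18:35085997-35086398 the levels were 208 and 207 in Hdac3-deleted cells and 63.8 and 45.4 in wild type (log2 fold change 1.93). The site at chr18:41979003-41980036, the most accessible of these, held 1352 and 1530.4 in Hdac3-deleted cells and 251 and 206 in wild type (log2 fold change 2.65). The groups stood apart at all 5 sites. The remaining named rises, at chr18:42467263-42468044, chr18:34410407-34411071, chr18:36088774-36089272, chr18:39835769-39836313 and chr18:34222732-34223049, were between 1.28 and 1.48. All 10 were spread over both sides of Hdac3, from 4.98 Mb below to 9.22 Mb above.

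The largest fall at a well covered site lay above the gene. At chr18:39185595-39186055, 1.24 Mb above Hdac3, the Hdac3-deleted libraries held 51.0 and 18.6 normalized reads and the wild-type libraries 447 and 431 (log2 fold change -3.79 ± 0.35, SE; limma, Benjamini-Hochberg adjusted p = 1.24e-05). This site was 12.6-fold higher in wild type, where its 673 and 380 reads stood against 51 and 14 reads in Hdac3-deleted cells. At chr18:38174388-38175103, 225 kb above Hdac3, the levels were 115 and 126 in Hdac3-deleted cells and 361 and 361 in wild type (log2 fold change -1.57 ± 0.20, SE; limma, Benjamini-Hochberg adjusted p = 0.000181). It was the nearest site above the gene to change by more than 1 in size in the well covered class. The second largest fall of this class, at chr18:44757588-44758265, came with 77.9 and 47.8 normalized reads in Hdac3-deleted cells and 542 and 551 in wild type (log2 fold change -3.14). The other named falls were smaller: besides the protocadherin site at chr18:37814372-37815578, log2 fold changes between -1.20 and -0.86 were measured at chr18:46179159-46179605, chr18:34843064-34843414, chr18:30352800-30353295, chr18:35937526-35938124, chr18:39409357-39410085 and chr18:34006898-34007569. Of these, the sites starting at 34843064, 30352800 and 34006898 missed the threshold without wild-type replicate 1 (limma, Benjamini-Hochberg adjusted p of 0.0799, 0.0833 and 0.145).

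**Figure D5:**
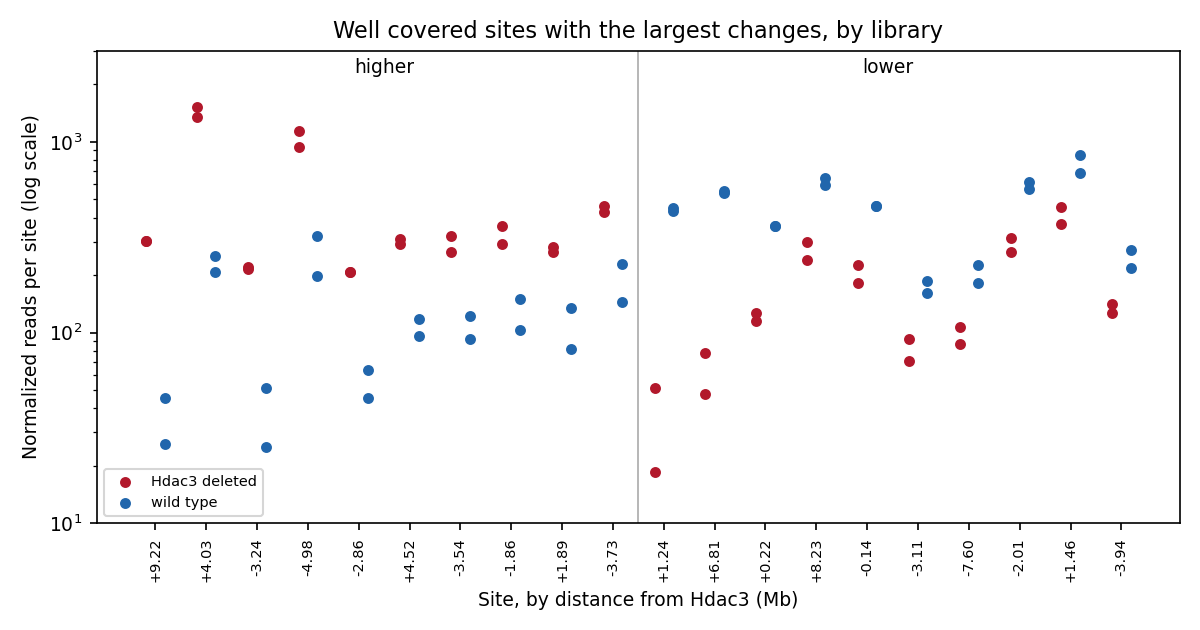
Normalized reads (log scale) in each library at the 10 well covered sites with the largest rises (left) and the 10 with the largest falls (right), labelled by distance from Hdac3 in Mb. The 2 Hdac3-deleted points lie on one side of both wild-type points at every site, as the choice required; levels of Hdac3-deleted libraries run from 18.6 at the deepest fall to 1530.4 at the site 4.03 Mb above Hdac3.

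Called changes above 1 in size formed runs. Of 83 such sites, 44 (53.0%) lay in 10 runs of at least 3 in the same direction less than 200 kb apart, 9 runs higher and 1 lower. Runs were not counted outside the stretch, so whether this share is unusual was not tested. Each run was picked for its called sites and begins and ends at one. The counts and levels inside runs given below therefore follow in large part from that choice. Of the 24 strong sites 15 lay in runs. The tightest was chr18:34678254-34706583, where 3 of 3 sites were higher; the mean log2 level was 7.68 and 7.31 in Hdac3-deleted cells and 4.89 and 5.67 in wild type. The run between 38711352 and 38741426, also 3 of 3 sites, lay 0.78 Mb above Hdac3 and had mean log2 levels of 7.45 and 7.13 in Hdac3-deleted cells and 5.97 and 6.16 in wild type. In the run between 32930554 and 33261203, 7 of 9 sites were higher and 1 was lower. At the upper end, 8 of 12 sites between 46984706 and 47332084 were higher and none lower. The run between 41922831 and 41983104 held 6 sites, all higher, and that between 43492907 and 43697962 held 9, of which 5 were higher. Others were looser: between 34222732 and 34411071 the test called 4 of 12 sites, between 35063315 and 35443553 5 of 12, and between 39835769 and 40083405 3 of 9 higher and 1 lower. The single lower run, between 46109620 and 46179605, had 3 of 7 sites lower.

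By windows of 1 Mb, 7 of the 16 windows of the stretch with at least 8 sites passed the test, all higher in Hdac3-deleted cells, against 16.8% higher and 8.49% lower among 1849 windows of the genome. The window from 47 to 48 Mb had a mean log2 level of 7.10 ± 0.10 in Hdac3-deleted cells and 6.11 ± 0.03 in wild type (SD, n = 2 each), which is 0.99 higher on the log2 scale (limma, Benjamini-Hochberg adjusted p = 0.00102). In it 7 of 14 sites were higher and 0 lower, against 11.7% and 8.9% of all sites. This window too was singled out because it was called higher. Windows from 40 to 44 Mb were higher one after another, with log2 fold changes of 0.62, 1.19, 0.24 and 0.83. They held 44 sites, of which 19 were higher (43.2%, against 11.7% of all sites) and 1 was lower (2.27%, against 8.9%), in windows singled out because they were called higher. The windows at 32 to 33 Mb and 36 to 37 Mb rose by 0.27 and 0.24. The window from 37 to 38 Mb, which carries Hdac3 and all 22 protocadherin sites, had a mean log2 level of 7.06 ± 0.03 in Hdac3-deleted cells and 7.22 ± 0.01 in wild type (SD, n = 2 each). Its log2 fold change of -0.17 did not pass (limma, Benjamini-Hochberg adjusted p = 0.0817). Fewer windows passed with either Hdac3-deleted library left out, and the share of all windows that passed in those fits is not given here. The windows at 40, 41 and 47 Mb still passed without Hdac3-deleted replicate 1.

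Within each class of site width, strong changes were more frequent in the stretch than over all sites. Of 200 sites under 300 bp in the stretch, 6.0% changed by more than 2, against 1.28% of all sites of that width. For 254 sites of intermediate width, from 300 bp up, it was 4.33%, against 0.852%, and for 55 broader sites 1.82% (1 site), against 0.132%. With sites below a mean of 50 normalized reads left out, the share was 3.58% in the stretch, 0.349% on the rest of chromosome 18 and 0.669% of all sites. The authors' deposited table gives an FDR under 0.05 to 139 of the 509 sites (27.3%), 90 higher and 49 lower, against 25.1% of all sites. Of the 129 calls made here, 111 are among those of the authors' deposited table, with 0 in the opposite direction. In the protocadherin cluster the overlap was smaller. There the authors' deposited table gives an FDR under 0.05 to 5 of the 22 sites (22.7%), all lower, and 2 of these were called here. The rise called here at 37643676 has an FDR of 0.25 in that table, and the fall called at 37805979 an FDR of 0.0916. The site at chr18:37938999-37939206 has a log2 fold of 1.67 and an FDR of 4.5e-08 in the authors' deposited table.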

How the data were processed

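Per the submitters' processing notes, the tools were DiffBind 1.10.2, edgeR, MACS2 2.0.10, Bowtie2 2.2.4 and SAMtools, in no stated order, with builds mm10 and dm3. Per the file headers, peaks were called per library by MACS 2.0.10.20131216 without control, at q 0.001, extending tags to 140 bp, on filtered, shifted reads. The pileup signal, the −log10 p-value and q-value and the fold enrichment ratio of each peak are the authors', per the file headers. The site table holds the authors' normalized reads (a signal), the log2 of group means with their fold, and p-values with FDR of the authors' own comparison, all as deposited. A column was given to the sample whose own peak file carries that name. Positions are as in the table, whose starts lie 1 bp before peak starts.

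Values of every library were whole multiples of 1 read for 100% of sites (tolerance 0.001 reads). The main test was limma 3.58.1 (R 4.3.3, variance trend, pseudocount 1) on all 69709 sites, none filtered. The same fit was run on 1 Mb windows. edgeR 4.0.16 (quasi-likelihood) on the recovered reads, which called 14618 sites against 14335 in limma, and DESeq2 1.42.0 were alternatives. No counting intervals are given. Fits were tested on simulated data.

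Named sites were those in and beside the Hdac3 interval, the called and the 3 most accessible protocadherin sites, and per direction the 10 largest calls at or above the median level, without overlap of groups and at most 1 per 100 kb. The stretch, lists and tests were chosen with earlier results of these data known. Landmark and marker genes were not analysed here for want of a mouse annotation; fly reads were not analysed, so these values cannot show a shift common to all sites.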

Additional observations from a re-analysis of the deposited data

How the results depend on the processing

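With each library left out in turn, called sites of the stretch numbered between 65 and 127, those of the protocadherin cluster between 2 and 4, and windows between 3 and 8. The share of sites above 1 in size then ran from 14.5% to 20.8%, and that above 2 from 4.52% to 6.29%, against 0.947% to 2.06% of all sites. A lone library is there assumed to vary like the others. At adjusted p under 0.01, 67 sites of the stretch were called, and the share of all sites at that threshold is not given here. Scaling each library to its filtered tag total was an alternative chosen after seeing the data. It left 90 called sites in the stretch (17.7%), 1 call in the protocadherin cluster (4.55%) and 3 windows. Over all sites the share called was then 12.5%, and the cause of the drop was not tested. The other alternatives run on these counts moved none of them by over 1.5 times. With each library left out, the uncalled site at chr18:37969325-37970101 ranged from -0.20 (without Hdac3-deleted replicate 2) to 0.31 in log2 fold change, against 0.06 with all 4, and so changed sign; no other named site or window changed sign in the fits run. The 2 sites in the Hdac3 interval stayed below the threshold in every fit. The site at chr18:37938999-37939206 was called in all of them. With the replicate block 127 sites (25.0%, against 20.4% of all sites), 4 protocadherin sites (18.2%) and 6 windows were called. Replicate numbers do not mark a shared source here, and same-numbered libraries deviated with a correlation of -0.104. The crossed block, also chosen after seeing the data, called 156 sites (30.6%, against 27.8% of all sites), 6 protocadherin sites (27.3%) and 9 windows. Depth limits the sizes of strong changes: at the 17 strong rises the median wild-type level was 19.2 normalized reads.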
